A study of Onthophagus taurus and Onthophagus nigriventris with 71 samples.

Results

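The 60 probes described here had a positive mean in legs and means near 0 in head and thorax of the horned beetle Onthophagus taurus. They were selected on their own readout: of 3840 probes on the array, 1992 had a mean deposited log ratio between -0.5 and 0.5 in head and in thorax, over 12 arrays each, and the 60 of these with the highest legs mean over 12 arrays were taken. Their legs, head and thorax means are therefore given as a description, with no test. Because the limits also removed 467 probes whose legs mean was at or above that of the last member, the 60 are not the probes with the highest legs values of the array.

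The study asked how gene expression differs between horned and hornless male morphs and between males and females, in tissues that form outgrowths and in a tissue that does not. Each array set RNA of a focal tissue against RNA of a comparison tissue, in 2 dyes. All RNA came from unmanipulated, laboratory-reared beetles dissected as pupae within 24 h of pupation, and each sample pooled 4 individuals. The O. taurus groups were legs, head epidermis and thorax epidermis, each against dorsal abdominal epidermis, and brain with optic lobes against subesophageal and thoracic ganglia, in females, large horned males and small hornless (sneaker) males, with 4 arrays per group. A further 4 arrays hybridised large male head to small male head, and 19 arrays set thorax against abdomen in Onthophagus nigriventris, a species with a thoracic horn (7 female, 5 large male and 7 small male arrays). The labels call the leg tissue whole dissected legs and the other focal O. taurus tissues, apart from brain, epidermis, so the legs samples may hold muscle, nerve and trachea.

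In insects, legs and horns both grow from epidermis that folds, everts and secretes cuticle around pupation, and leg formation relies on genes that pattern an appendage from its base to its tip. Beetle horns are outgrowths of the head or thorax that are studied as cases in which such appendage genes were taken into use at another site. Whole legs also hold muscle, nerve, trachea and blood cells, which carry transcripts of their own. None of the probe identifiers matched any of the 16956 genes of the RefSeq annotation of O. taurus (assembly IU_Otau_3.0), so the probes are named here by identifier, markers of muscle, nerve or other tissues could not be checked, and no gene function is given.

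Values were the deposited normalised log ratios, taken as log2. Nothing in the sources states which tissue is the numerator; a positive value most likely means higher in the focal tissue, and if the ratio runs the other way every sign below turns. The ratios had been turned to one direction across dye swaps: 81 of 82 pairs of arrays of opposite dye orientation within a group correlated above 0 over all probes, and for legs these pairs, across groups too, ran between 0.738 and 0.939. The medians of the 71 arrays over all probes lay between -0.17 and 0.17. Arrays of a group correlated at 0.734 to 0.939 in legs, 0.748 to 0.949 in head, 0.782 to 0.937 in thorax, 0.105 to 0.816 in brain and -0.037 to 0.634 in O. nigriventris. Large male legs replicate 3 stood apart from the other legs arrays, with a mean correlation of 0.751 with them, the next lowest array being small male legs replicate 3 at 0.807. The number of arrays limits the precision. The p-values measure the spread between arrays of a group, in which differences between pools and between hybridisations cannot be told apart. In O. taurus that spread is taken over all 12 groups fitted together, brain included, and not over the groups compared alone.

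The 60 probes had legs means of 0.67 to 4.40, with a median of 0.79 against 0.06 over all probes. Of the members, 2 had a legs mean of at least 4, 4 of at least 2 and 13 of at least 1, so the set has a few high probes and a long tail just above its lower end. Head means ran between -0.47 and 0.47 with a median of 0.18, and 43 members were above 0 in head, against 54.8% of all probes. Thorax means ran between -0.18 and 0.50 with a median of 0.33. In thorax 53 members were above 0, against 54.4% of all probes, and 16 exceeded 0.4. Near 0 in head and thorax thus often meant a small positive value, most often in thorax. In some members a head mean within the limits averaged large values of both signs. Head values ran between -1.69 and 1.98 in OtP016-E11, -1.46 and 1.66 in OtP016-C07, and -3.33 and 1.91 in OtL002-E07. Nor was every member clearly positive in each legs group: in female legs OtP018-G07 read 0.43, 0.25, -0.08 and -0.08. The legs mean exceeded the higher of the head and thorax means by at least 0.5 in 32 members, by at least 1 in 6 and by at least 2 in 3.

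**Figure D1:**
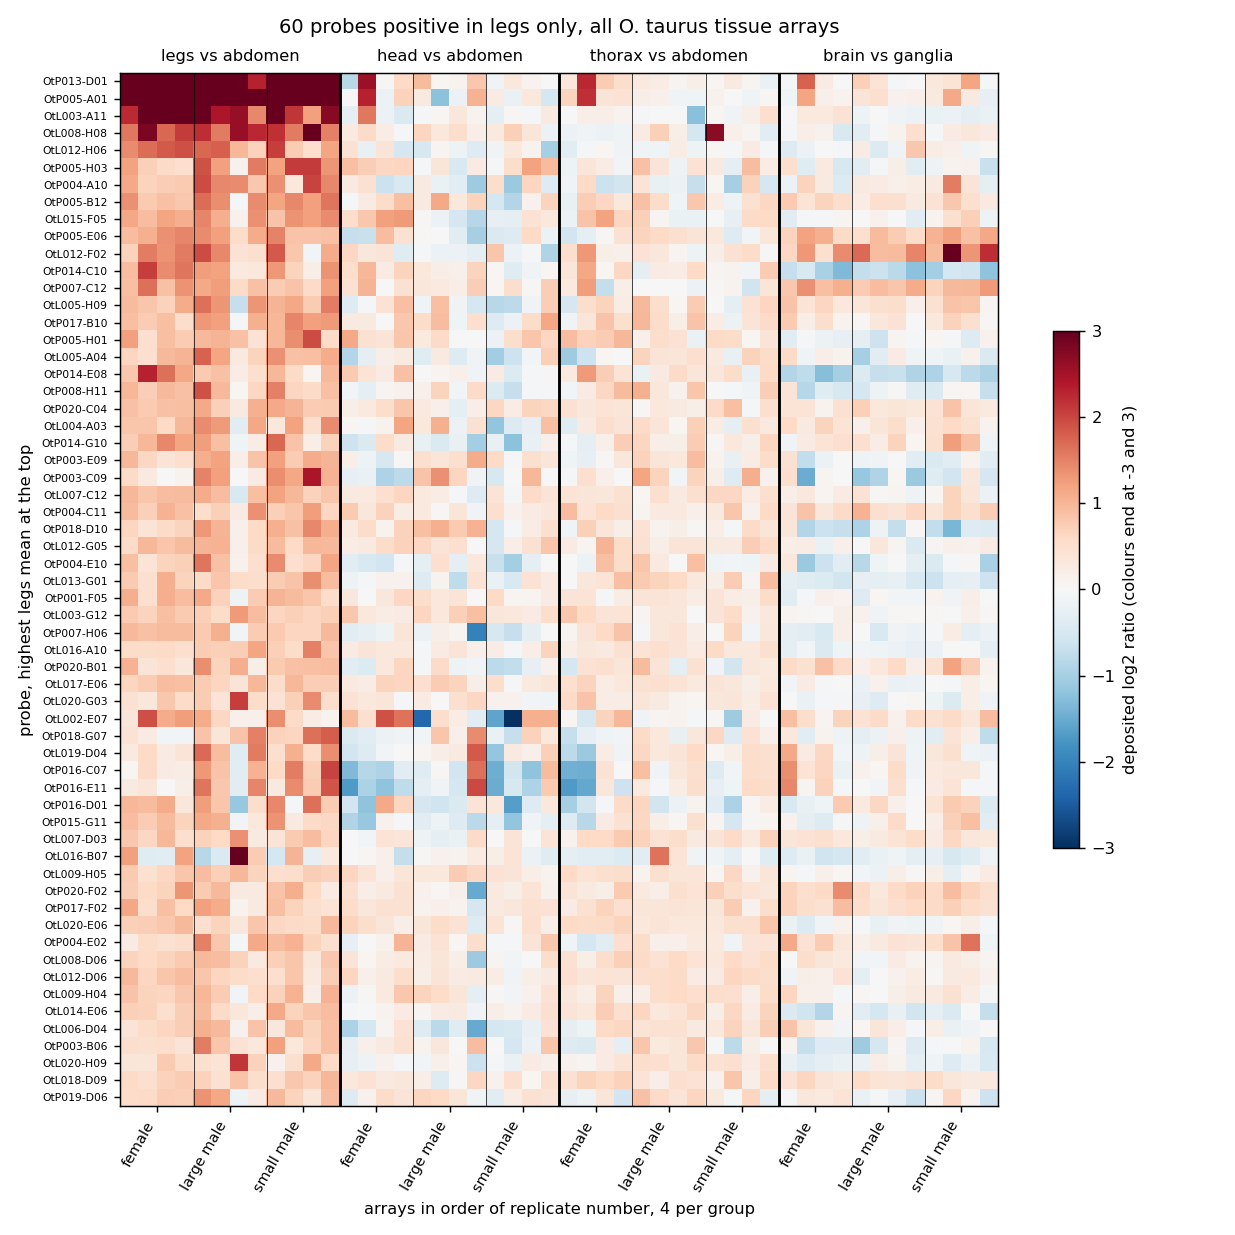
Deposited log2 ratio of each of the 60 probes (rows, highest legs mean at the top) on the 48 O. taurus tissue arrays, with colours ending at -3 and 3. The legs columns are positive nearly throughout, large male legs replicate 3 is paler, and a few probes are strongly positive or negative in brain.

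The ends of the list were set by small margins. The last members, OtL018-D09 and OtP019-D06, had legs means of 0.674 and 0.673, while OtP019-D11 and OtL009-G09, the next by the same rule, had 0.665 and 0.664. OtP003-F06 had a legs mean of 1.28 and was left out because its thorax mean was 0.502. OtP013-H07, with a legs mean of 0.75, was left out for a thorax mean of 0.502 as well.

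The highest probe, OtP013-D01, read 4.62, 6.12, 5.17 and 5.87 on the female legs arrays. On the large male legs arrays it read 4.48, 4.40, 4.16 and 2.30, and on the small male legs arrays 3.99, 4.38, 3.16 and 4.12. Every female array lay above every male array, and the legs mean over all 12 was 4.40, a 21.1-fold ratio if the values are log2. Over the 12 head arrays it had a lowest value of -0.83, a median of 0.11 and a highest value of 2.59. In thorax its lowest, median and highest values were -0.21, 0.24 and 2.26. The highest head, thorax and brain values of this probe were all on a female replicate 2 array, with 1.76 in brain. Without female replicate 2 its head mean was 0.19 and its thorax mean 0.24.

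OtP005-A01 read 3.72, 4.60, 4.55 and 4.53 on the female legs arrays, 4.73, 4.37, 4.82 and 3.66 on the large male ones and 3.72, 4.10, 3.51 and 4.18 on the small male ones. The 3 groups overlapped, and the mean of 4.21 corresponds to 18.5-fold. The female replicate 2 arrays were again its highest in head, at 2.31, in thorax, at 2.19, and in brain, at 1.18. Its legs arrays nonetheless all lay above all its head and thorax arrays, which held for 2 members, this one and OtL012-H06, and for 14 of all probes (0.365%). That separation was used by the choice of members and is no test.

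OtL003-A11 read 2.23, 4.11, 3.29 and 3.45 in female legs, 2.96, 2.43, 2.61 and 1.43 in large male legs and 3.26, 2.14, 1.23 and 2.74 in small male legs. Its legs mean was 2.66, with the highest value on a female array and the lowest on a small male array. Its head and thorax means were 0.09 and -0.01, and its highest head value, 1.58, was on female replicate 2.

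OtL008-H08 had a legs mean of 2.15, with 1.59, 2.82, 1.72 and 2.09 in females, 2.22, 1.57, 2.60 and 2.27 in large males and 2.20, 1.56, 3.66 and 1.5 in small males. The groups overlapped. On small male thorax replicate 1 it read 2.71, above most of its legs arrays, while its median over the 12 thorax arrays was -0.00.

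**Figure D2:**
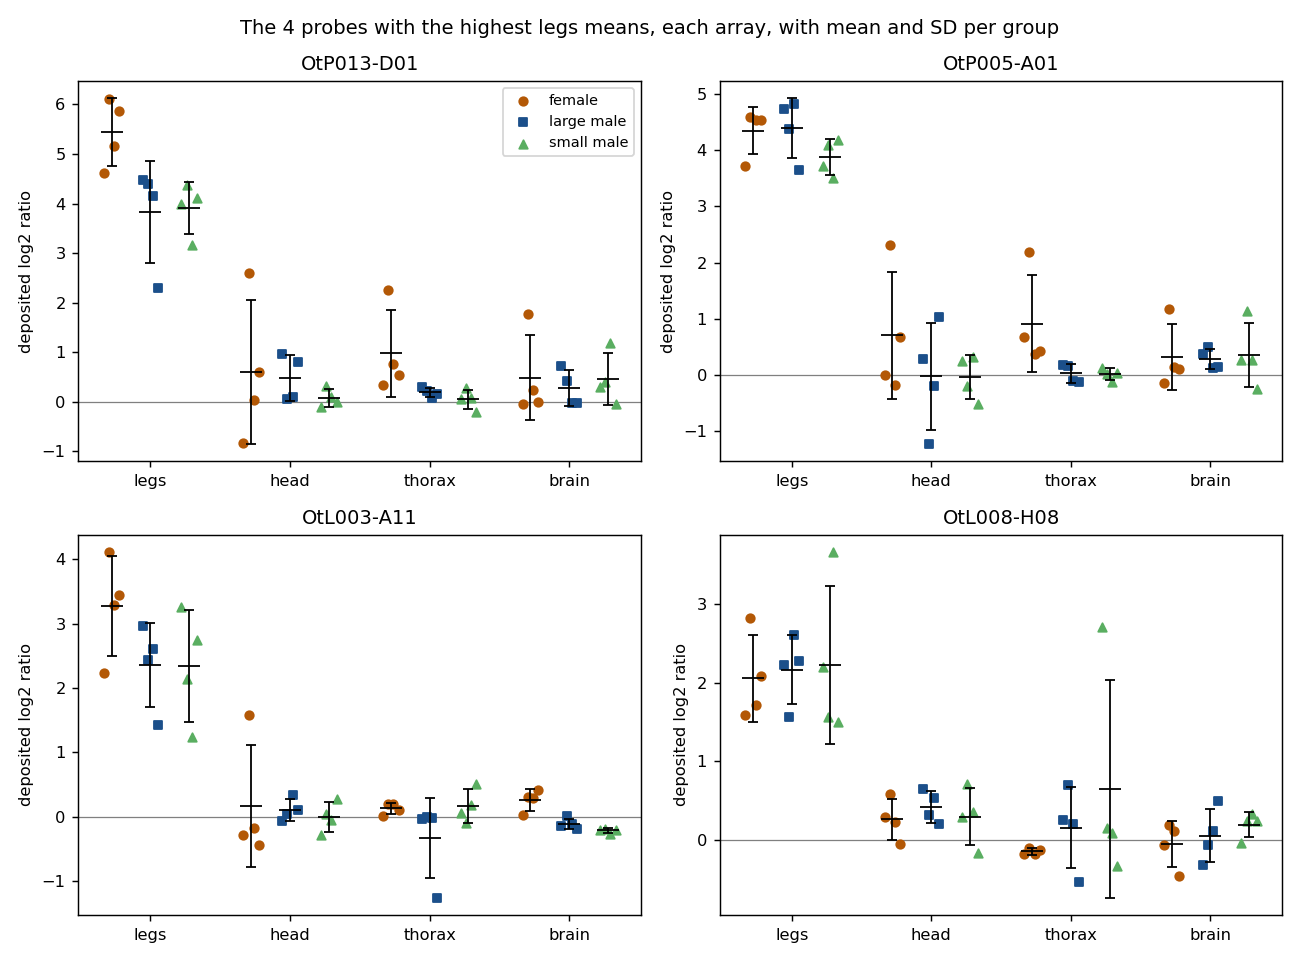
Deposited log2 ratio on each array for the 4 probes with the highest legs means, with the mean and SD per group (n = 4). Legs values stand above the other tissues, except for single high arrays. These are female head replicate 2 of OtP013-D01 and OtL003-A11, and small male thorax replicate 1 of OtL008-H08.

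The next 6 probes were lower and more alike. OtL012-H06 had 12 positive legs arrays between 0.51 and 2.08 (median 1.54), head values between -1.0 and 0.47 and thorax values between -0.33 and 0.25. OtP005-H03 ran between 0.12 and 2.11 in legs (median 1.22), with group means of 0.75 ± 0.32 in females, 1.20 ± 0.77 in large males and 1.68 ± 0.48 in small males (SD, n = 4). OtP004-A10 ran between 0.31 and 2.03 in legs (median 1.26) and had negative head and thorax means of -0.17 and -0.18. All 3 kept their sign on every legs array.

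OtP005-B12 had legs values between -0.03 and 1.68 (median 1.30), OtL015-F05 between 0.12 and 1.46 (median 1.18) and OtP005-E06 between 0.56 and 1.5 (median 1.09). These 3 probes and OtP005-H03 had their lowest legs value on large male legs replicate 3, as did 33 of the 60 members and 18.8% of all probes. In all, 40 of the 60 members were positive on all 12 legs arrays, against 21.2% of all probes, a count that the choice of members fixes in part.

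On large male legs replicate 3, 43 members were positive and 17 negative, and their median was 0.27. On the other 11 legs arrays at least 58 members were positive and the medians lay between 0.68 and 1.18. The mean over the 4 large male legs arrays of the members' median was 0.78 ± 0.39 (SD), or 0.95 ± 0.23 without replicate 3 (n = 3), while females had 0.80 ± 0.08 and small males 0.88 ± 0.10 (SD, n = 4). OtL016-B07 read 6.73 on that array and between -0.84 and 1.23 on the other 11 legs arrays, and its legs mean without it was 0.16. Its SD over the legs arrays, 2.03, was the highest of the members. The lowest SD, 0.16, was that of OtL009-H05, and the members' median was 0.41 against 0.28 over all probes. Leaving large male legs replicate 3 out of the choice kept 55 of the 60.

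Members did not vary as a block from array to array. Over the 48 arrays, with group means removed, the 1770 pairs of members had a median Pearson correlation of 0.098. Of these pairs, 193 were above 0.5, 11 above 0.8 and 26 below -0.5. Pairs of other probes were not looked at in this way, so whether these counts are particular to the members was not tested. The highest pairs were OtP016-C07 with OtP016-E11 (0.956), OtL019-D04 with OtP016-E11 (0.922) and OtP005-B12 with OtL005-H09 (0.915). Chosen after these values were seen, 4 probes (OtP005-B12, OtL005-H09, OtL004-A03 and OtP017-B10) correlated among themselves at 0.835 to 0.915, and 3 (OtP016-C07, OtP016-E11 and OtL019-D04) at 0.885 to 0.956. These correlations are a description: arrays may share pools of animals, and probes may share a transcript. The 4 were near or below 0 on large male legs replicate 3, with -0.69 for OtL005-H09 and -0.31 for OtL004-A03, and the 3 were negative there too, with -0.33 for OtP016-C07.

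**Figure D3:**
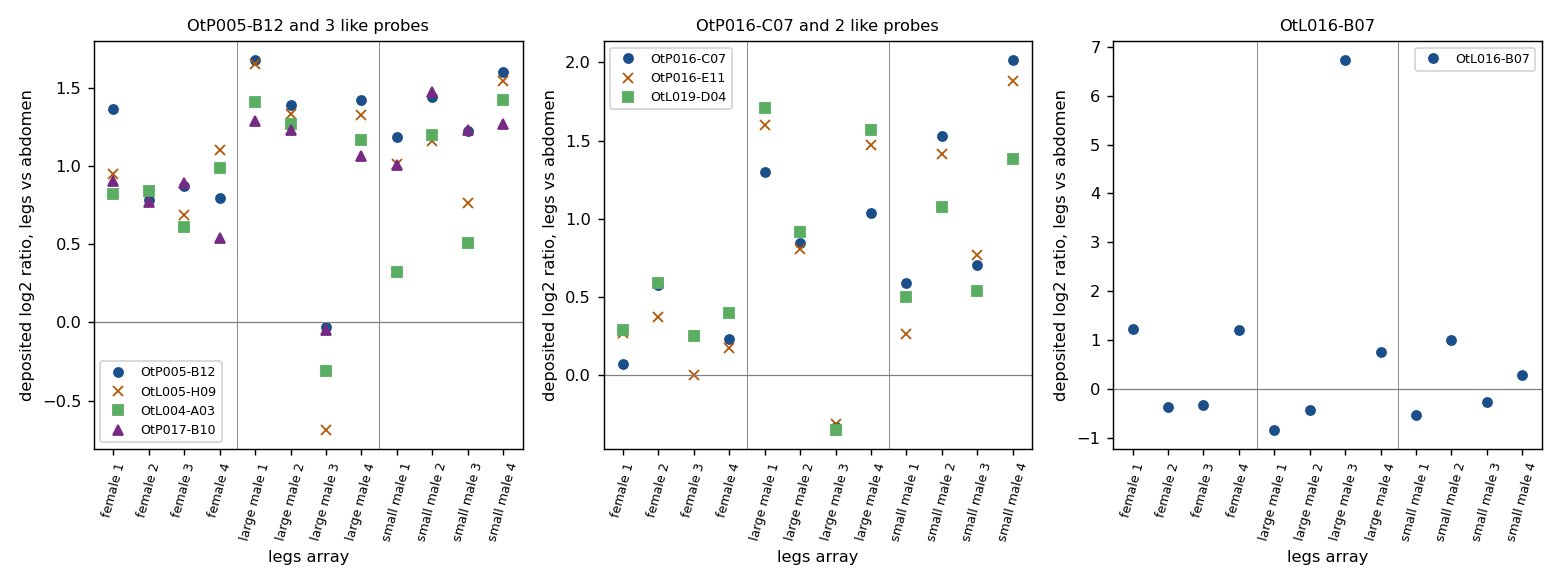
Deposited log2 ratio against abdominal epidermis on each of the 12 legs arrays for 2 sets of correlated probes and for OtL016-B07. Both sets fall to 0 or below on large male legs replicate 3, where OtL016-B07 reads 6.73.

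The probes most like the highest members over all 48 arrays were partly outside the set. OtP013-D01 correlated at 0.963 with OtP014-A08, at 0.960 with OtP005-A01 and at 0.959 with OtP013-D04. OtP005-A01 correlated at 0.973 with OtP013-D04, 0.966 with OtP014-A08 and 0.966 with OtP001-H02. Of these, OtP013-D04 had a legs mean of 4.40 with head and thorax means of 0.58 and 0.55, and OtP014-A08 had 4.19 with 0.56 and 0.34. OtL008-H08 was least like the others, its closest probe being OtL014-A09 at 0.794. Without female head replicate 2 and female thorax replicate 2, a setting chosen after seeing the data, 50 members stayed and 10 probes entered, among them OtP013-D04, OtP014-A08 and OtP011-G01 (legs mean 3.35).

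The groups are balanced, so sex and morph differences within legs are uncorrelated with the legs mean that chose the members, if arrays vary alike. A single extreme array can still enter both. OtL016-B07, which read 6.73 on large male legs replicate 3, had a legs mean of 0.16 without that array. It also had the largest difference between large and small male legs among the members, 1.43. For large against small males, limma called no member and no probe (0%) at an adjusted p of 0.05, with 2 members and 235 probes at an unadjusted p under 0.05. The member with the smallest p was OtL014-E06, with 0.95, 0.58, 0.34 and 0.17 in large males and 1.13, 0.66, 0.83 and 0.94 in small males. The groups overlapped, and the difference was -0.38 ± 0.17 (SE, limma adjusted p = 0.77).

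For females against males in legs, limma called no member and 0.208% of all probes, with 10 members and 460 probes at an unadjusted p under 0.05. OtP014-E08 had the smallest p, with 0.81, 2.32, 1.65 and 1.17 in females, 0.79, 0.89, 0.23 and 0.51 in large males and 0.99, 0.59, 0.05 and 0.97 in small males. The lowest female value lay within the male range, and the difference was 0.86 ± 0.21 (SE, limma adjusted p = 0.0593). It passed the threshold without female legs replicate 1 (adjusted p = 0.0122), large male legs replicate 2 (0.0499) or small male legs replicate 1 (0.0285), and with array weights, under which 7 members, 3 higher and 4 lower in females, and 4.84% of all probes were called. For OtP013-D01, whose female arrays all lay above its male arrays, the difference was 1.57 ± 0.41 (SE, limma adjusted p = 0.0985), and for OtP018-G07 it was -0.92 ± 0.24 (adjusted p = 0.0985).

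In head, 1 member was called for large against small males, against 7.4% of all probes. OtP018-D10 read 0.91, 1.07, 0.80 and 1.04 in large males, against -0.53, -0.07, 0.23 and 0.51 in small males. The groups did not overlap, and the difference was 0.92 ± 0.25 (SE, limma adjusted p = 0.0156), which lost the threshold without small male head replicate 1 (adjusted p = 0.0958) or replicate 2 (0.0501). Without small male head replicate 4, 3 members and 7.4% of all probes were called. The call was also lost with scaled arrays (adjusted p = 0.222) and in a fit of the groups compared alone (0.0848). On the 4 direct arrays of large against small male head, which the choice of members did not use, it read 1.37, 1.53, 0.42 and 1.35, with a mean of 1.17 ± 0.20 (SE, limma adjusted p = 0.104).

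For females against males in head, 2 members were called, against 2.55% of all probes. OtL015-F05 read 0.54, 0.81, 1.23 and 1.28 in females, against 0.05, -0.17, -0.51 and -0.86 in large males and -0.26, -0.29, 0.43 and 0.32 in small males. Its female arrays all lay above its male arrays, and the difference was 1.13 ± 0.23 (SE, limma adjusted p = 0.00366). With each array scaled the call was lost, at a difference of 0.91 and an adjusted p of 0.181. In legs its groups overlapped, with means of 1.10 ± 0.12 in females, 1.01 ± 0.61 in large males and 1.21 ± 0.25 in small males (SD, n = 4). The test of whether the female to male difference was the same in legs as in head and thorax gave -0.81 ± 0.29 (SE, limma adjusted p = 0.416). With array weights that test passed the threshold (limma adjusted p = 0.0184), as it did for 1.56% of all probes.

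OtL002-E07 read 0.95, 0.48, 1.91 and 1.62 in female head, against -2.34, 0.54, 0.22 and -0.35 in large males and -1.57, -3.33, 1.06 and 1.06 in small males. Males spread widely and overlapped the females, and the difference was 1.83 ± 0.50 (SE, limma adjusted p = 0.0357). That call was lost on leaving out any of 6 arrays: female head replicate 1 (adjusted p = 0.0640), 3 (0.123) or 4 (0.138), large male head replicate 1 (0.0841) or small male head replicate 1 (0.0731) or 2 (0.0726). It was also lost with scaled arrays (0.254) and in a fit of the groups compared alone (0.342).

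Thorax gave no called member in either comparison. For large against small males 0.026% of all probes were called, with 1 member and 224 probes at an unadjusted p under 0.05 in limma, and OtP003-B06 had the smallest p (0.74 ± 0.26, SE, adjusted p = 0.575). It read 0.83, 0.29, 0.36 and 0.80 in large males, against -0.06, -0.78, 0.17 and -0.01 in small males, with no overlap. For females against males 2.11% of probes were called, with 10 members and 697 probes at an unadjusted p under 0.05, and OtL005-A04 had the smallest p (-0.81 ± 0.26, SE, limma adjusted p = 0.0938).

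Direct tests of whether legs differed from head and thorax in these contrasts called no member. For the morph contrast 0.0521% of all probes were called, with 3 members and 301 probes at an unadjusted p under 0.05 in limma, and OtP003-C09 had the smallest p (-1.23 ± 0.46, SE, adjusted p = 0.421). For the sex contrast 0.0521% were called as well, with 5 members and 293 probes at an unadjusted p under 0.05, and OtL015-F05, above, had the smallest p. The members' median morph contrast in legs minus that in head and thorax was -0.21, against 0.02 over all probes. That value includes large male legs replicate 3, where the members' median was 0.27, against 0.68 to 1.18 on the other legs arrays. No value without that array is given, so -0.21 is not read as a difference between morphs.

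The direct arrays called no member and 0.234% of all probes, with 13 members and 694 probes at an unadjusted p under 0.05 in limma. OtP008-H11 had the smallest p among members, reading 1.18, 1.26, 0.57 and 0.99, all positive (mean 1.0 ± 0.16, SE, limma adjusted p = 0.0976). Without replicate 2 of the direct arrays, 1 member and 3.57% of all probes were called, without replicate 1 no member and 0.391%, and without replicate 3 no member and no probe. The members' median on these arrays was 0.17 against -0.02 over all probes. The dye orientation term of the O. taurus fit called no member, against 3.46% of all probes, with 9 members and 692 probes at an unadjusted p under 0.05 in limma. OtL006-D04 had the smallest p for dye (0.27 ± 0.10, SE, adjusted p = 0.110).

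Brain arrays were not used to choose the members. Against ganglia, 27 of the 60 were called by limma, against 51.8% of all probes. Of these 17 were positive, against 20.1% of all probes, and 10 negative, against 31.7%. The members' median was 0.10, against -0.06 over all probes, and centring each array on its median called 30 members, 22 positive and 8 negative, with 49.5% of all probes called. Scaling each array as well called 41 members, 31 positive and 10 negative, with 63.5% of all probes called.

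OtL012-F02 was positive on all 12 brain arrays, with a lowest value of 0.48, a median of 1.31 and a highest value of 3.02 (mean 1.36 ± 0.15, SE, limma adjusted p = 1.17e-09). OtP007-C12 ran between 0.66 and 1.38 with a median of 0.95 (mean 0.97 ± 0.10, SE, limma adjusted p = 3.69e-10). OtP005-E06 ran between 0.51 and 1.22 with a median of 0.91 (mean 0.88 ± 0.11, SE, limma adjusted p = 1.61e-08). Their legs means were 1.09, 1.0 and 1.10, but the values are on different scales: brain was set against ganglia, another nervous tissue, and legs against abdominal epidermis.

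The opposite sign occurred as well. OtP014-C10 was negative on all 12 brain arrays, between -1.33 and -0.45 with a median of -0.76 (mean -0.85 ± 0.11, SE, limma adjusted p = 2.78e-08). OtP014-E08 ran between -1.27 and -0.42 with a median of -0.83 (mean -0.81 ± 0.10, SE, limma adjusted p = 6.98e-09). OtP018-D10 ran between -1.37 and 0.36, with 2 positive arrays (mean -0.54 ± 0.10, SE, limma adjusted p = 2.62e-05).

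In O. nigriventris thorax against abdomen, on arrays of another species that the choice of members did not use, 23 members were called, against 25.7% of all probes. Of these 21 were positive, against 13.5% of all probes, and 2 negative, against 12.2%. The members' median was 0.24, against -0.00 over all probes. Of the 60, 48 were above 0, against 50.7% of all probes. The O. taurus thorax values of the members, kept within the limits by the choice, were mostly small and positive too. Arrays of this group agreed less with each other than those of O. taurus. Their medians over all probes followed the dye orientation. These medians were negative (-0.166 to -0.038) on every array with the focal tissue in Cy3. With the focal tissue in Cy5 they were all positive (0.017 to 0.166). The members' medians averaged 0.34 in Cy5 and 0.21 in Cy3. The fit held a dye term, but the single-array values below make no allowance for dye. The means below are estimates of that fit, averaged over the female, large male and small male groups. They are not plain means of the 19 arrays: for OtP005-B12 the plain mean was 0.91.

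OtP005-B12 was positive on all 19 arrays, with a lowest value of 0.083, a median of 0.85 and a highest value of 1.70 (mean 0.95 ± 0.11, SE, limma adjusted p = 5.81e-07). OtL005-H09 was positive on 17 of the 19 arrays, between -0.63 and 2.60 with a median of 0.94 (mean 0.74 ± 0.14, SE, limma adjusted p = 0.000233). OtP020-B01 was positive on 17 as well, between -0.32 and 1.65 with a median of 0.82 (mean 0.72 ± 0.12, SE, limma adjusted p = 8.71e-05). OtL004-A03 and OtP017-B10, which varied with the first 2 of these on the O. taurus arrays, had means of 0.61 and 0.70.

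OtP004-A10 was negative on 16 of the 19 arrays with a median of -0.42 (mean -0.44 ± 0.11, SE, limma adjusted p = 0.0043). OtP016-D01 was positive on 3 of the 19 and ran between -1.74 and 2.45 (mean -0.50 ± 0.18, SE, limma adjusted p = 0.0381), a call lost on leaving out any of 11 of the 19 arrays (small male replicates 2, 3 and 6, large male 1, 3, 4 and 5, female 1, 4, 5 and 7; limma adjusted p between 0.0530 and 0.115) and without the dye term (0.0620). Of the 4 highest legs probes, OtL008-H08 passed the threshold (0.52 ± 0.16, SE, limma adjusted p = 0.0229). OtP013-D01 had 0.38 ± 0.19 (SE, adjusted p = 0.162), OtP005-A01 0.17 ± 0.19 (adjusted p = 0.584) and OtL003-A11 0.23 ± 0.20 (adjusted p = 0.458).

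**Figure D4:**
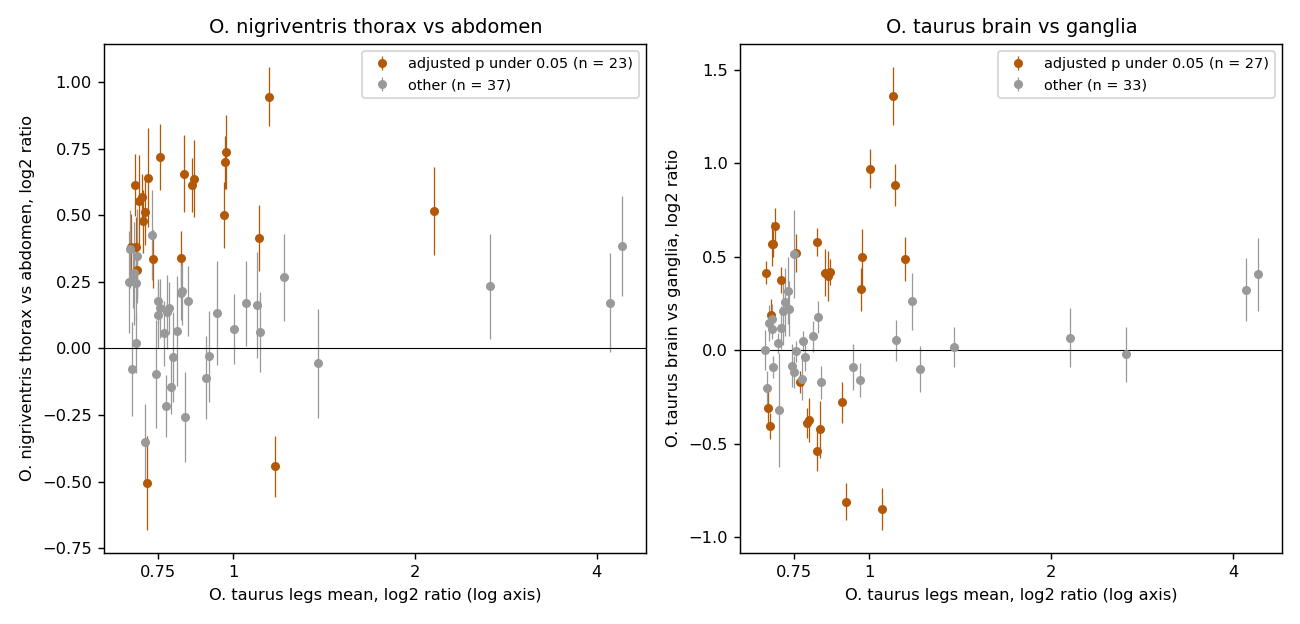
Effect of each of the 60 probes with its SE in O. nigriventris thorax against abdomen (left) and O. taurus brain against ganglia (right), against the O. taurus legs mean on a log axis. In O. nigriventris 21 of the 23 called members are positive, and in brain the 27 called members are split into 17 positive and 10 negative.

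The members lay on 31 of the 40 plates named in the probe identifiers, with at most 5 on a plate, and made up 1.56% of all probes. Their legs medians per array averaged 0.82 with the focal tissue in either dye, over 6 arrays each.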

How the data were processed

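The authors deposited normalised log ratios of 3840 probes on 71 2-colour arrays, taken as log2 because limma is named in the submitters' processing notes; for background correction, normalisation, version and ratio direction, the sources used here state nothing. Members were found by their mean over arrays, with head and thorax limits of 0.5. The members and lists were chosen with earlier results of these data known. Comparisons were fitted with lmFit and eBayes (limma 3.58.1, R 4.3.3), with Benjamini-Hochberg adjustment over all probes and a threshold of 0.05, in 1 fit of 48 O. taurus arrays (12 groups, dye term), 1 of the 19 O. nigriventris arrays and 1 of the 4 direct arrays, after testing on simulated data. Means were computed in Python 3.11.15. Named probes were the 10 with the highest legs mean, those at the ends of the list, in each comparison all called members if 5 or fewer, otherwise the 3 largest of each sign, or that with the smallest p, those of lowest and highest SD in legs and the 3 most correlated pairs; others are named as chosen after seeing the data. Replicate numbers were not treated as pairs over a whole comparison, since in 1 tissue all 4 same-numbered pairs correlated above 0.1 in their deviations for 2 of 12 pairs of groups, female with small male head (0.265 to 0.595) and thorax (0.102 to 0.454). Between tissues of the same group of animals this held for 3 of 9 pairs of groups, and 27 of 36 single pairs were above 0.1. There an array's closest match in the other tissue bore its own number in 53 of 72 cases. Between different animals in 1 tissue this was so in 28 of 72. By pair of groups, that count ran from 0 of 8 (female with large male legs and head) to 8 of 8 (female with small male head). The main fit treated all arrays as independent. Fits with the number as a fixed or random block were therefore run. The lists of appendage, cuticle and tissue marker genes could not be run without probe annotation.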

Additional observations from a re-analysis of the deposited data

Results flagged for a closer look

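Of 128 sets of values looked at, 8 held an array far from the others of its group, where chance gives about 1 in 20. OtP013-D01 read 2.30 on large male legs replicate 4, with the others at 4.16 to 4.48. OtP005-A01 read 3.72 on female legs replicate 1, with the others at 4.53 to 4.60. OtP005-B12 read 1.37 on female legs replicate 1, with the others at 0.78 to 0.87. On large male legs replicate 3, OtP005-B12 read -0.027, with the others at 1.39 to 1.68, and OtL005-H09 read -0.69, with the others at 1.33 to 1.65. OtP005-E06 read 1.5 on small male legs replicate 1, with the others at 0.84 to 0.89. In O. nigriventris females, OtP005-B12 read 0.083 on replicate 2, with the others at 0.76 to 1.12. OtL014-E06 read 0.485 on female legs replicate 3, with the others at 0.70 to 0.73.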

How the results depend on the processing

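Shares in brackets are of all probes in the same fit. Scaling each array to one median absolute deviation called 41 members in brain, 31 positive and 10 negative (63.5%, against 27 and 51.8%), 0 for large against small male head (2.03%, against 1 and 7.4%) and 0 for female against male head (0.208%, against 2 and 2.55%). A fit of the groups compared alone called 0 for large against small male head (2.89%) and 1 for female against male head (0.911%). Array weights called 7 for female against male legs (4.84%), 2 for large against small male head (8.57%) and 3 for dye (6.51%). They also called 1, OtL015-F05, for the sex contrast of legs against head and thorax (1.56%). The causes were not tested. With a replicate block, 27 members were called in brain (52.5%) and 18 in O. nigriventris (23.5%). In head it called 1 for large against small males (8.07%) and 2 for females against males (2.79%). In the other O. taurus comparisons it called 0, with at most 3.28% of all probes called, for dye. A random replicate block over tissues called 0 members for both contrasts of legs against head and thorax (0.156% by morph, 0.339% by sex). Of the calls named, the fixed block ended that of OtP016-D01 in O. nigriventris (adjusted p = 0.0619). No block was run for the direct arrays. Leaving out 1 array gave 24 to 30 called members in brain (47.6% to 51.5%) and 19 to 24 in O. nigriventris (23.5% to 25.9%). It gave 0 to 2 for female against male legs (0% to 0.755%) and 0 to 1 on the direct arrays (0% to 3.57%). For large against small male head it gave 0 to 3 (5.29% to 7.4%), and for female against male head 1 to 2 (1.22% to 3.02%). The rest gave 0 to 0, with at most 3.85% of all probes called, for dye. Turning every sign makes the members' median legs value -0.79. The choice kept 54 to 60 members when 1 array was left out, 45 with centred arrays, 50 with scaled ones, 44 with medians, 13 with limits of 0.25, 11 with limits of 1, and 29, 25 and 34 with the female, large male and small male arrays alone. A fit of the groups compared alone was not run for dye, where it holds the same arrays.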
